A study of Mus musculus with 2 samples.

Results

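Sertoli cells are the somatic nurse cells of the seminiferous tubule, and 9 genes for products by which they are known were read here for captured methylated DNA in the testis of Kaiso knockout and wildtype mice. The genes are Amh, Inha, Inhbb, Fshr, Cst9, Cst12, Gdnf, Kitl and Clu, listed by name with earlier results of these data known. For each, all windows of the deposited table that overlap its mm10 gene span plus 1 kb on each side were taken. This gave 400 of the 2537435 listed windows of 100 bp, and no window fell in 2 of the genes. Each of the 9, among 21887 protein-coding genes of the annotation, had at least 4 listed windows, and 8 had enough counts for a call.

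DNA came from C57BL/6 testis in 2 libraries. The Kaiso KO library was labelled as generation 3 offspring with male sterility, and the wildtype library carried no other allele or treatment in its labels. Ages, the number of animals and the deleted part of the Kaiso gene are not given in the sources used here, and the description of the Kaiso KO sample also calls its testis wildtype. Genomic DNA was sheared, methylated fragments were pulled down with the methyl-CpG binding domain of MBD2, and the pulled-down fragments were sequenced, so a count measures captured DNA and not RNA. The libraries held 98549116 Kaiso KO and 87710791 wildtype reads. The targeted gene Zbtb33, which encodes Kaiso, had 83 Kaiso KO and 303 wildtype counts in 16 listed windows (log2 ratio -2.04, 95% interval -2.80 to -1.31). This is a weak check of the label, since the deleted part is unknown. The Zbtb33 windows average 1.81 CpGs, and all listed windows with 1 and 2 CpGs had median log2 ratios of -1.22 and -0.71. With 1 library per genotype no difference can be set against replicates, and every interval given is one of counting error alone. The table holds only windows that the authors' unadjusted p-value placed below 0.05, so an absent window is not shown to be unchanged and listed ratios are pushed away from 1. In whole testis, fewer cells with a methylated copy and less methylation per cell cannot be told apart.

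Sertoli cells respond to follicle-stimulating hormone through the receptor encoded by Fshr. They secrete anti-Müllerian hormone (Amh), which removes the female duct in the male embryo, and the inhibin subunits alpha (Inha) and beta B (Inhbb), which form the hormone that restrains follicle-stimulating hormone. They also feed the germ line, with Gdnf for stem cell renewal and with Kitl, the ligand of the Kit receptor, for differentiating spermatogonia. Methylation of CpGs near a gene start is generally linked to a silent gene, and MBD2 capture reads such methylation more readily where CpGs are dense.

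Start sequences were available for 7 of the 9 genes, from RefSeq on GRCm38.p6, the assembly of mm10, as 250 bases before to 50 after the start. Amh and Clu are named only. Shown first are the starts of Cst12, Fshr and Inha, which had listed windows. Those of Inhbb and Kitl follow, which had none although they are richer in CpGs. Capitals mark each CpG.
Cst12 (chr2:148789115-148789414, plus strand): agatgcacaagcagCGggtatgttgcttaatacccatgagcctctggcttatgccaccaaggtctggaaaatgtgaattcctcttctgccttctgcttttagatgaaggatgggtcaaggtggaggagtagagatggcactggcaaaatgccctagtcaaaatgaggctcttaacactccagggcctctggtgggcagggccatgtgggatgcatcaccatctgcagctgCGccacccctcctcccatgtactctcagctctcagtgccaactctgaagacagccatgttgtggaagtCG
Fshr (chr17:89200626-89200925, minus strand): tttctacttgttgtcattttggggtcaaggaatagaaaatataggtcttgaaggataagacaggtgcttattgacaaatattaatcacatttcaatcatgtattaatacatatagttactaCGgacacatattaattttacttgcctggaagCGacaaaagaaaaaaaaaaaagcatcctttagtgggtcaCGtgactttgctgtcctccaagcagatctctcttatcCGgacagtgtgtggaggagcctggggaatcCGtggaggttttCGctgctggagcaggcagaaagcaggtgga
Inha (chr1:75507359-75507658, plus strand): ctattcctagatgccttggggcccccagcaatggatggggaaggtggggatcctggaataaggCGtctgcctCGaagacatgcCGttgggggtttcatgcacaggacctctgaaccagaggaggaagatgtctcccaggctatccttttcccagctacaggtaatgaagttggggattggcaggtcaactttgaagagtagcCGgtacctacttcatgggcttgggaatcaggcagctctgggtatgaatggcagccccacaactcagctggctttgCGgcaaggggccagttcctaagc
Inhbb (chr1:119422199-119422498, minus strand): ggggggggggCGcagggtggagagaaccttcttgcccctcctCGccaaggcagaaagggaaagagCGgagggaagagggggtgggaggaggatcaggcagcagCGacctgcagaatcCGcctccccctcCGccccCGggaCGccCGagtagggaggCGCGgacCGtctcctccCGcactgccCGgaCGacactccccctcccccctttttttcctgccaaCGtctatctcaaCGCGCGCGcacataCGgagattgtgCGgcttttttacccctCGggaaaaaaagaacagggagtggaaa
Kitl (chr10:100015571-100015870, plus strand): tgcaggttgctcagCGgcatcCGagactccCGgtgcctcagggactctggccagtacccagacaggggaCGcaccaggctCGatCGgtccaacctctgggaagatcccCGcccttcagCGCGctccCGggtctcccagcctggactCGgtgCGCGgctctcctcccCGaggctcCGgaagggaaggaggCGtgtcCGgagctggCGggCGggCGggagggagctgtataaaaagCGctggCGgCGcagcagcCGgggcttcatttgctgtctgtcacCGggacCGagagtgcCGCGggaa
The Cst12, Fshr and Inha starts hold 3, 6 and 5 CpGs, against 23 in Inhbb and 28 in Kitl and a median of 7 over 32851 starts. Kaiso is known to bind methylated CGCG and the unmethylated sequence TCCTGCNA. Searched on both strands, TCCTGCNA occurred once in Inhbb and in none of the other starts, against 4.96% of all starts. CGCG occurred 4 times in Inhbb, overlapping matches counted, and 3 times in Kitl, and was absent from Cst12, Fshr and Inha, against 38.0% of all starts. Each CGCG holds CpGs that are marked in capitals too. The starts that hold these letters had no listed window, which says nothing of binding.

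Over the whole genes, 3 of the 8 genes with enough counts were higher in the Kaiso KO library and 0 were lower. A call needed at least 20 fragments over both libraries (window counts divided by 4), a Kaiso KO over wildtype ratio, scaled to library reads, of 2 or more or of 0.5 or less, and a 95% interval that leaves out 1. Over 19225 protein-coding genes the same rule called 9.64% higher and 5.64% lower. Cst12, Amh and Inha were the genes called, and Gdnf, Fshr, Inhbb, Clu and Kitl lay under 2-fold. The median log2 ratio was 0.58 for the 8 genes with enough counts and 0.48 for all 9, beside 0.31 over all genes tested.

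**Figure D1:**
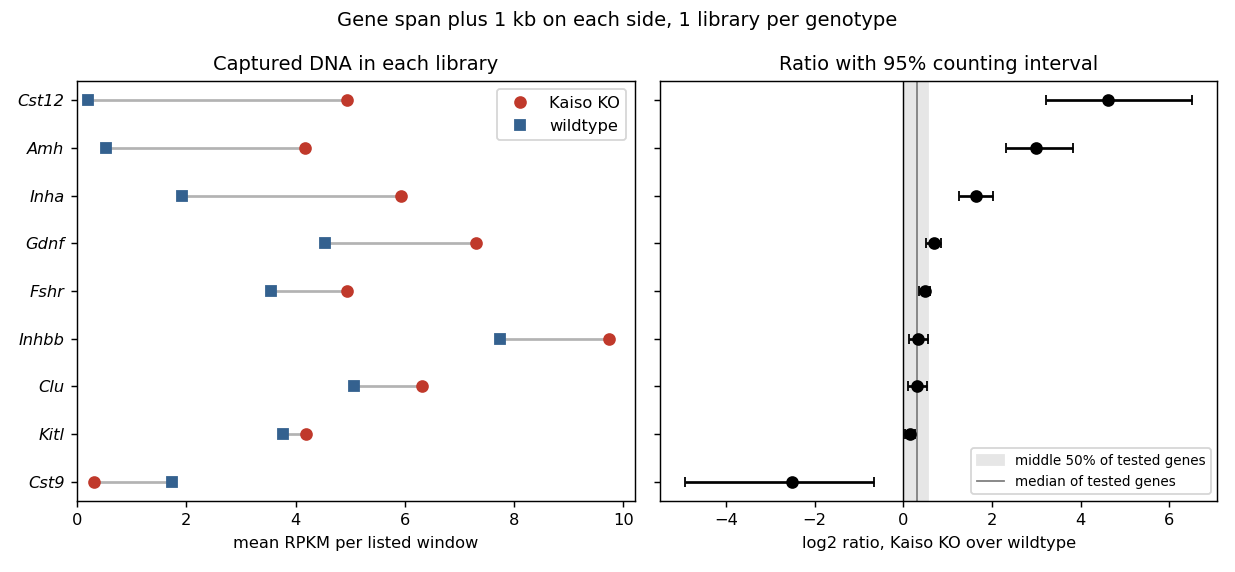
Captured DNA of the 9 genes over the gene span plus 1 kb on each side, ordered by ratio, as mean RPKM per listed window in each library (left) and as log2 ratio of Kaiso KO over wildtype with its 95% counting interval (right). Cst12, Amh, Inha and, by less, Gdnf lie right of the grey band, which spans the middle 50% of tested genes, and Cst9 lies left of it.

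Cst12 encodes a cystatin, a family of cysteine protease inhibitors, on chromosome 2 from 148789365 to 148793432. It had 438 Kaiso KO and 16 wildtype counts in 9 listed windows, a mean of 4.94 Kaiso KO and 0.203 wildtype RPKM per listed window. Per window the Kaiso KO counts lay between 11 and 72 and the wildtype counts between 0 and 4. Adjacent windows can share reads, so these are not repeated measurements. The ratio was 24.4-fold (log2 4.61, 3.22 to 6.51), a value exceeded by few of the tested genes, since 99.9% lay below it. All 9 windows lay within 1 kb of the annotated start, so the start region has the same values. Windows from 148789301 to 148789600, across the start printed above, held 33, 52 and 60 Kaiso KO counts and 3, 4 and 3 wildtype counts. The next 5 windows, from 148789801 to 148790300, held 70, 72, 67, 48 and 25 Kaiso KO counts against 2, 2, 1, 0 and 0 in wildtype (log2 5.65, 3.44 to 11.29). The rest of the gene had no listed window.

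Cst9 is another cystatin gene farther along the same chromosome, from 148835147 to 148838737, and it went the other way. Its 4 listed windows, adjacent and from 148838201 to 148838600 near the far end of the gene, held 2, 2, 3 and 5 Kaiso KO counts against 10, 14, 17 and 20 wildtype counts. The log2 ratio was -2.51 (-4.92 to -0.67), but 18.25 fragments are under the minimum of 20, so the gene was not called. These windows carry 1 or 2 CpGs each, classes with median log2 ratios of -1.22 and -0.71 over all listed windows. Scaled within CpG classes, the log2 ratio of Cst9 was -1.49, with an interval of -3.89 to 0.36 that includes 0. The Cst9 start, with 3 CpGs, had no listed window.

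The other cystatin genes, several of them in the same cluster, were read for comparison. Of a list of 13 other cystatin genes, 12 were matched, 10 had listed windows and enough counts, 1 was higher and 3 were lower, beside 9.64% and 5.64% of all genes, and the median on the log2 scale was -0.59 (0.14 when scaled within CpG classes). Of 2 tested cystatin starts 0 were higher and 1 was lower, beside 48.5% and 13.8% of all starts. The lower ones are Cst8 (45 Kaiso KO and 129 wildtype counts, log2 -1.69, -2.85 to -0.68) and Cst13 (64 and 177, log2 -1.64, -2.55 to -0.77), which lie between Cst12 and Cst9, and Cst3 (32 and 80, log2 -1.49, -2.88 to -0.25), the gene of the widespread inhibitor cystatin C. Csta1, on chromosome 16, was higher (235 Kaiso KO and 92 wildtype counts, log2 1.18, 0.47 to 1.95). Cstdc1, the nearest neighbour of Cst12 on its other side, had 125 Kaiso KO and 79 wildtype counts (log2 0.49, -0.39 to 1.35). The difference between Cst12 and these genes has no replicate check.

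Amh lies on chromosome 10 from 80805240 to 80807679. It had 659 Kaiso KO and 74 wildtype counts in 16 listed windows (4.18 Kaiso KO and 0.527 wildtype RPKM per window). Each of the 16 was higher in the Kaiso KO library, beside 56.5% of all listed windows. The Amh ratio was 7.93-fold (log2 2.99, 2.32 to 3.82). The rise was concentrated in 9 adjacent windows inside the gene, from 80806301 to 80807200, with 46 CpGs in all. They held 20, 37, 57, 74, 77, 69, 47, 26 and 13 Kaiso KO counts against 3, 6, 8, 5, 5, 2, 0, 0 and 0 in wildtype (log2 3.69, 2.65 to 5.09). The Kaiso KO counts formed a single peak over this stretch while wildtype counts stayed at 8 or fewer. A second stretch, from 80808101 to 80808700, lay beyond the gene, and 3 of its windows overlap the neighbouring gene Jsrp1. It had 203 Kaiso KO and 26 wildtype counts (6.95-fold, log2 interval 1.70 to 4.43). The remaining window, on the neighbour Sf3a2, held 36 Kaiso KO and 19 wildtype counts. With 5 kb on each side of the gene in place of 1 kb, the log2 ratio of Amh was 1.19 and that of Cst12 1.56, both still past the rule.

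Inha, on chromosome 1 from 75507077 to 75510366, had 1052 Kaiso KO and 302 wildtype counts in 18 listed windows (3.10-fold, log2 1.63, 1.25 to 2.01). All 18 lie inside the gene span, as does the start printed above, at 75507609. Inha held 2 stretches of different size. Before and across the start, the 7 windows from 75507001 to 75507700 had 512 Kaiso KO and 224 wildtype counts, between 45 and 89 per window in the Kaiso KO library and between 22 and 39 in wildtype (2.03-fold). Near the far end, the 8 windows from 75509401 to 75510200 had 44, 64, 76, 93, 80, 72, 57 and 27 Kaiso KO counts against 4, 4, 3, 2, 1, 3, 4 and 3 in wildtype (19.0-fold, log2 4.25, 3.09 to 5.72). The start was captured in both libraries, whereas the far stretch was nearly free of wildtype counts. Between them, 2 windows were lower in the Kaiso KO library, with 13 Kaiso KO against 38 wildtype counts and with 3 against 15. Another window there, from 75509201 to 75509300, was higher, with 11 Kaiso KO against 1 wildtype count.

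**Figure D2:**
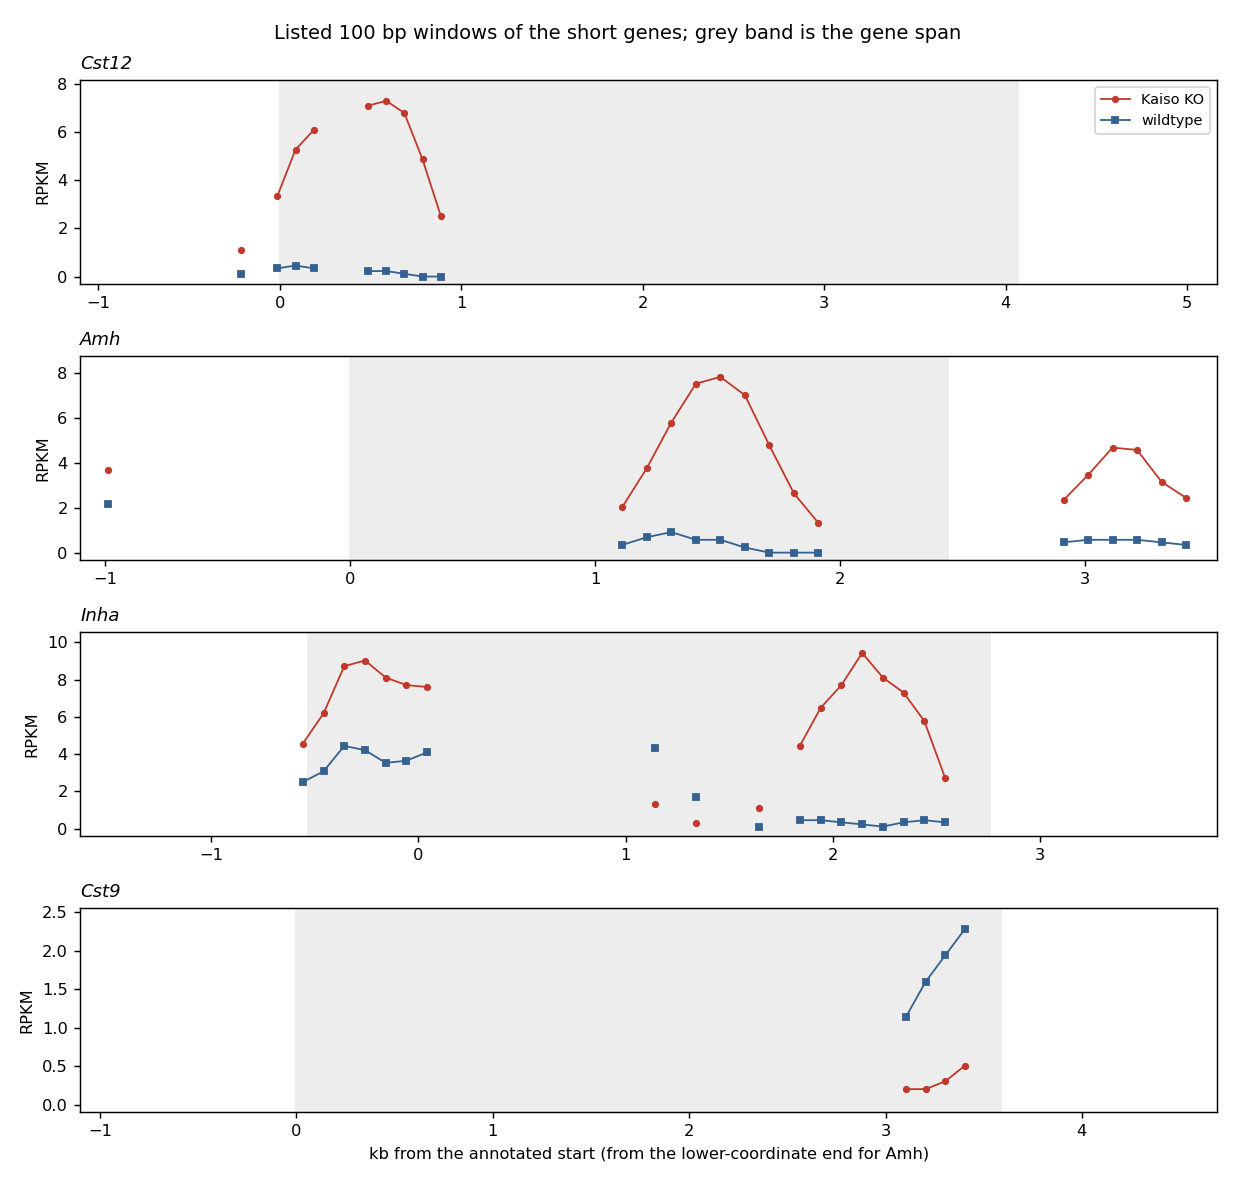
RPKM of each listed window of Cst12, Amh, Inha and Cst9 in the Kaiso KO (red circles) and wildtype (blue squares) libraries against distance from the annotated start in kb (from the lower-coordinate end for Amh), with the gene span in grey and lines joining adjacent listed windows. Kaiso KO peaks of 7.31, 7.81 and 9.44 RPKM stand over near-empty wildtype windows in Cst12, Amh and Inha, and the 4 windows of Cst9 are higher in wildtype.

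Inhbb, on chromosome 1 from 119415463 to 119422248 and transcribed from the higher coordinate, was captured strongly in both libraries. It had 1822 Kaiso KO and 1289 wildtype counts in 19 listed windows (9.73 Kaiso KO and 7.73 wildtype RPKM per window, the highest of the 9 genes in each library), with a log2 ratio of 0.33 (0.12 to 0.54). A block of 11 windows, 4.3 to 5.3 kb from the start, had 1543 Kaiso KO and 900 wildtype counts, between 129 and 149 against between 73 and 90 per window (log2 0.61, 0.37 to 0.85). A neighbouring stretch of 4 windows, 3.5 to 3.8 kb from the start, went the other way, with 65 Kaiso KO and 190 wildtype counts (log2 -1.72, -2.67 to -0.91). The windows of the block average 3.82 CpGs and those of the lower stretch 1.5. No window within 1 kb of the start was listed.

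Gdnf, on chromosome 15 from 7810048 to 7837580, had 3240 Kaiso KO and 1794 wildtype counts in 45 listed windows (log2 0.68, 0.52 to 0.86). Of the 45, 38 were higher in the Kaiso KO library, beside 56.5% of all listed windows. None of the 45 lay within 1 kb of either of the 2 annotated Gdnf starts. Closest to them, 5 windows from 7812001 to 7812500 had 57 Kaiso KO and 4 wildtype counts (log2 3.66, 0.92 to 9.04, with fewer fragments than the minimum), and 9 windows from 7815201 to 7816100 had 166 and 15 (log2 3.30, 1.76 to 5.17). Levels there were low, with means of 1.16 and 1.87 Kaiso KO RPKM and 0.0912 and 0.190 wildtype RPKM. Near the far end, 15 windows from 7834301 to 7835800 had 2007 Kaiso KO and 1007 wildtype counts (13.6 Kaiso KO and 7.65 wildtype RPKM, log2 0.83, 0.61 to 1.05). The other 7 listed windows were lower, among them 7823001 to 7823300 with 18 Kaiso KO and 63 wildtype counts (log2 -1.98) and 7832601 to 7832900 with 22 and 67 (log2 -1.77), also at low capture.

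Clu encodes clusterin, an abundant secreted chaperone, on chromosome 14 from 65968483 to 65981548. It had 1803 Kaiso KO and 1291 wildtype counts in 29 listed windows (log2 0.31, 0.10 to 0.52). Of the Clu windows 22 were higher in the Kaiso KO library, beside 56.5% of all listed windows. Beside its lower-coordinate end, 5 windows from 65967801 to 65968300 had 15, 25, 35, 34 and 25 Kaiso KO counts against 5, 1, 3, 4 and 3 in wildtype (log2 2.90, 1.43 to 4.88). Inside the gene, 4 windows from 65968801 to 65969200 had 83 Kaiso KO and 19 wildtype counts (log2 1.96, 0.46 to 3.67). Farther in, 4 windows from 65976801 to 65977200 were lower, with 116 and 218 (log2 -1.08, -1.77 to -0.39).

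**Figure D3:**
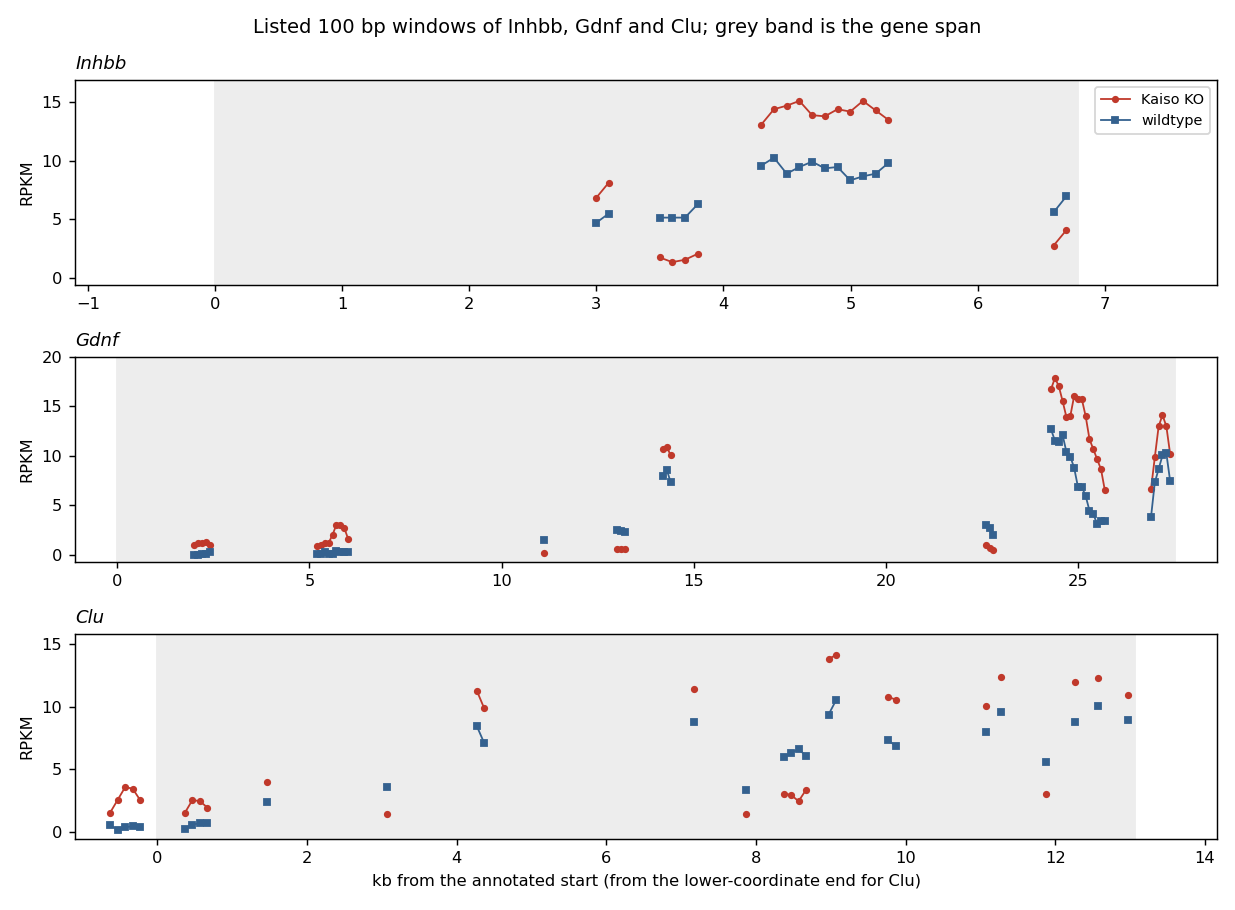
RPKM of each listed window of Inhbb, Gdnf and Clu in the Kaiso KO (red circles) and wildtype (blue squares) libraries against distance from the annotated start in kb (from the lower-coordinate end for Clu), with the gene span in grey and lines joining adjacent listed windows. Most windows are captured in both libraries, and the near-empty wildtype windows lie toward the left end of Gdnf and Clu.

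Fshr, on chromosome 17 from 88984952 to 89200675 and transcribed from the higher coordinate, is the longest of the 9 genes, and 6.06% of its windows were listed, against a median of 13.0% over protein-coding genes. It had 6423 Kaiso KO and 4107 wildtype counts (log2 0.48, 0.36 to 0.59), with 66 listed windows higher and 66 lower in the Kaiso KO library. By direction, 56.5% of all listed windows were higher and 43.5% lower. The Fshr start was higher. The 5 windows from 89200401 to 89200900, across the start printed above, held 59, 65, 59, 50 and 33 Kaiso KO counts against 5, 6, 9, 8 and 10 in wildtype (log2 2.64, 1.59 to 3.68). The 11 windows just inside, from 89199201 to 89200300, had 672 Kaiso KO and 95 wildtype counts (log2 2.65, 2.02 to 3.32). Beyond the start, 3 further windows were lower, with 8, 8 and 2 Kaiso KO counts against 27, 26 and 17 in wildtype, and with them the region within 1 kb of the start had 661 and 174 (log2 1.76, 1.25 to 2.25).

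Farther into Fshr, 6 windows 108 kb from the start, from 89091701 to 89092300, had 454 Kaiso KO and 47 wildtype counts (log2 3.10, 2.22 to 4.07). By contrast, 5 adjacent windows from 89016701 to 89017200 held 0 Kaiso KO and 98 wildtype counts, at least 9.18-fold lower in the Kaiso KO library when 12 window counts, the floor of 3 fragments over the stretch, stand for 0. A strongly captured block of 11 windows from 89153301 to 89154400 had 1516 Kaiso KO and 833 wildtype counts (log2 0.70, 0.45 to 0.95).

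Kitl, on chromosome 10 from 100015615 to 100100416, had 5286 Kaiso KO and 4242 wildtype counts in 128 listed windows (log2 0.15, 0.03 to 0.27). This value sums windows that moved apart, since 34 passed 2-fold higher and 59 passed 2-fold lower. These are 26.6% and 46.1%, beside 17.0% and 38.0% of all listed windows. Of the 128 windows 94 hold 1 or 2 CpGs, classes in which 37.8% and 49.2% of all listed windows were higher by direction. The CpG-rich start had no listed window within 1 kb. The longest higher run, 8 windows from 100093601 to 100094400, had 706 Kaiso KO and 187 wildtype counts (log2 1.75, 1.27 to 2.23). The 11 windows from 100038401 to 100039700, in 2 stretches, had 285 and 255 Kaiso KO counts against 49 and 38 in wildtype (log2 2.37 and 2.58). The longest lower run, 7 windows from 100020901 to 100021600, had 48 Kaiso KO and 186 wildtype counts (log2 -2.12, -3.16 to -1.17).

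**Figure D4:**
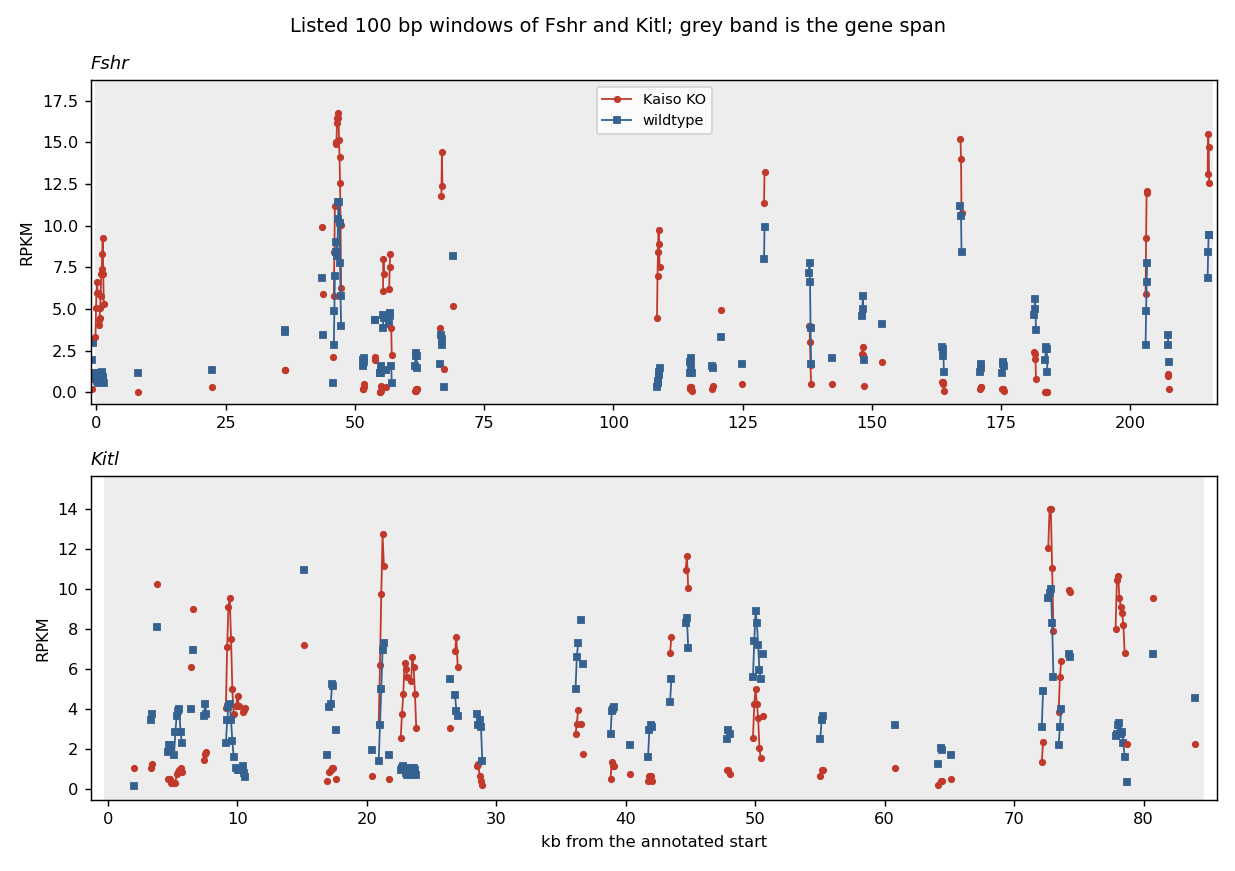
RPKM of each listed window of Fshr and Kitl in the Kaiso KO (red circles) and wildtype (blue squares) libraries against distance from the annotated start in kb, with the gene span in grey and lines joining adjacent listed windows. Higher and lower windows alternate along both genes, and the 16 higher windows at and just inside the Fshr start have Kaiso KO values of up to 9.23 RPKM over wildtype values of up to 1.25.

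The start regions were compared on their own, within 1 kb of the annotated starts. Of the 7 genes with a start, Cst12, Fshr and Inha had listed windows there, and all 3 were called higher. The Inha call ended under 3 of 5 other scalings, with log2 ratios of 0.75 by autosomal counts, 0.85 with TMM and 0.36 with windows holding at least 5 CpGs centred on 0. Over 6124 tested starts 48.5% were called higher and 13.8% lower, so a higher start is frequent in these libraries. Starts without any listed window were frequent too, 50.8% of 17492 genes.

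Across the 400 windows, 131 passed 2-fold higher in the Kaiso KO library with an interval excluding 1 and 142 passed 2-fold lower, and 127 did neither. Over all listed windows 17.0% were higher and 38.0% lower by this rule, beside 32.75% and 35.5% of the 400. By direction alone 241 were higher and 159 lower, beside 56.5% and 43.5% of all listed windows. The 400 windows lie in 134 separate stretches, and adjacent ones can share reads, so these shares do not rest on 400 independent units. The called windows formed 21 runs of at least 3 adjacent higher windows and 23 lower ones, with 118 and 91 windows. Mean CpGs per window lay between 2.00 and 5.78 in the higher runs and between 1.00 and 1.67 in the lower ones. Fshr and Kitl, with 132 and 128 of the 400 windows, held 9 and 10 of the lower runs and 4 and 6 of the higher ones. Runs were not counted over the whole table, so these numbers have no background. Windows under 1 wildtype RPKM made up 81 of the 400 (20.25%), beside 9.44% of all listed windows, and were spread over 7 genes, with none in Inhbb or Cst9. All 81 were higher in the Kaiso KO library, as were all 239629 such windows of the table. Listed windows have a p-value below 0.05 and a summed count of at least 10. A window this low in wildtype therefore had little room to be listed as lower, and this direction is no trait of the 9 genes.

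Windows with more CpGs were more often higher in the Kaiso KO library, in the 9 genes and over the table. With 1 CpG, 51 of 146 member windows were higher in the Kaiso KO library (34.9%, against 37.8% of all listed windows of that class). With 3 CpGs the share was 57 of 70 (81.4%, against 71.0%), and with 5 or more CpGs 45 of 45 (98.9% of all). The size differed more in the densest class, where the median log2 ratio was 2.17 in member windows and 0.67 in all listed windows, with median counts of 75 Kaiso KO and 9 wildtype against 120 and 70. The 12 such windows of Cst12, Amh and Inha had a median of 3.76 and the 33 of the other genes 0.97. In windows with 1 or 2 CpGs, 15 of 16 were higher in Cst12, Amh and Inha (median 2.74), and 88 of 231 in the other genes (median -1.22), so the genes called were higher in CpG-poor windows as well. These 3 genes were called on the same counts, so this split is a description.

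**Figure D5:**
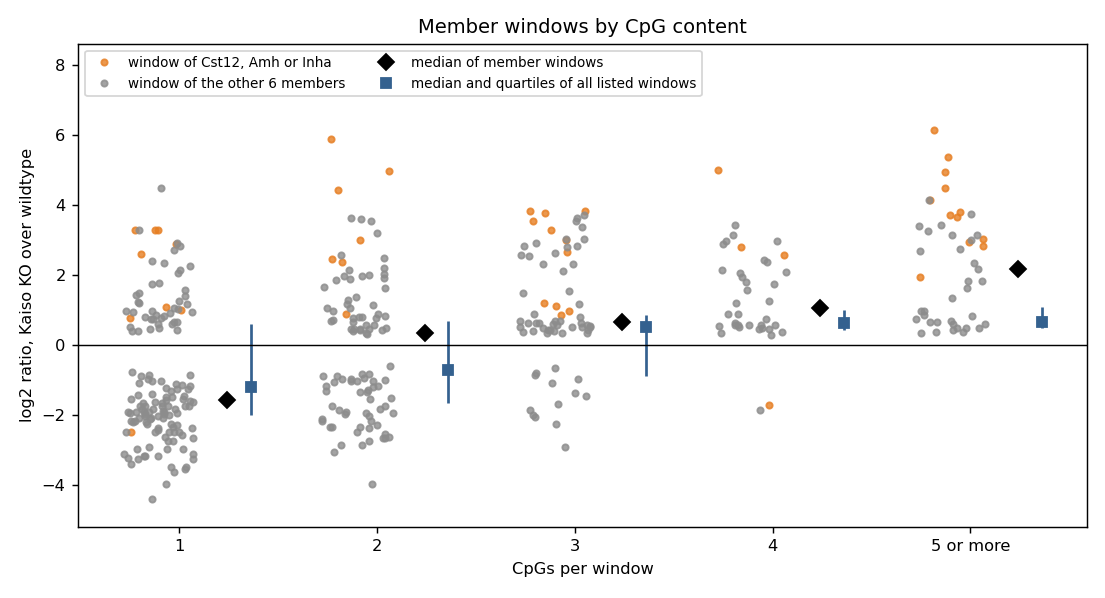
Log2 ratio of Kaiso KO over wildtype of each of the 400 windows (points, orange for Cst12, Amh and Inha and grey for the other 6 genes, spread sideways for clarity) by the number of CpGs in the window, with the median of member windows (black diamonds) and the median and quartiles of all listed windows (blue squares with bars). Member medians run from -1.56 with 1 CpG to 2.17 with 5 or more CpGs, and most orange points lie above 0.

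A relative methylation score deposited by the authors, on a scale they do not state, was higher in the Kaiso KO library for the genes called. It comes from the same 2 libraries on whose counts these genes were called, so it is no separate check. Its median per window was 0.169 in the Kaiso KO and 0.00610 in the wildtype library for Cst12, 0.0584 and 0.00747 for Amh, and 0.124 and 0.0369 for Inha. The Kaiso KO median was also the higher one for Gdnf (0.140 and 0.132) and Clu (0.212 and 0.172). For the other 4 genes it was the lower one, with 0.190 and 0.209 for Inhbb, 0.140 and 0.194 for Kitl, 0.101 and 0.162 for Fshr and 0.0307 and 0.166 for Cst9.

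Hormone receptors and signalling partners of the 9 products made a list of 22 genes, with a median log2 ratio of 0.26, beside 0.31 over all genes tested. Over the whole gene 1 of them was higher and 0 were lower, beside 9.64% and 5.64% of all genes. Only 3 had a tested start, and those 3 were higher (log2 3.13 to 5.99, 1139 Kaiso KO and 130 wildtype counts in all), beside 48.5% of all starts. The list's median was -0.017 when scaled by autosomal counts and -0.41 when windows holding at least 5 CpGs were centred on 0. The higher one was Amhr2, the receptor of anti-Müllerian hormone, with 2454 Kaiso KO and 635 wildtype counts (log2 1.78, 1.53 to 2.04). Inhba, the inhibin beta A subunit, had 459 and 218 (log2 0.91, 0.44 to 1.42), and Kit, the receptor of Kitl, 24163 and 16130 (log2 0.41, 0.36 to 0.47). The Gdnf receptor pair Ret and Gfra1 had log2 ratios of 0.16 (0.07 to 0.25) and 0.09 (0.03 to 0.15).

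Among 24 other genes of Sertoli cells, 5 were called higher and 1 was called lower, beside 9.64% and 5.64% of all genes, and the list's median was 0.46 on the log2 scale (-0.21 when windows holding at least 5 CpGs were centred on 0). At 8 tested starts 3 were higher and 1 was lower, a share of higher starts below the 48.5% of all starts. The 4 with the highest bounds were the transcription factor gene Sox8 (830 Kaiso KO and 250 wildtype counts, log2 1.56, 1.16 to 2.01), the gap junction gene Gja1 (1553 and 502, log2 1.46, 1.16 to 1.76), the tight junction gene Cldn11 (2009 and 776, log2 1.20, 0.96 to 1.45) and the intermediate filament gene Vim (477 and 175, log2 1.28, 0.76 to 1.80). The fifth was Sox9, which drives Sertoli cell fate (log2 1.33, 0.75 to 1.92). Tsx, an X-linked testis gene, was lower (181 and 353, log2 -1.13, -1.69 to -0.60).

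Genes known to be methylated in somatic cells and free of methylation in germ cells were read beside them. Over whole genes 6 of 16 were called higher, 0 lower and 10 neither (median 0.72), beside 9.64% of all genes called higher. Of the 16 genes 15 were higher at their starts and 0 were lower (median 2.87 on the log2 scale, range 0.73 to 4.81), beside 48.5% called higher and a median of 0.97 over all tested starts. Their starts summed to 14094 Kaiso KO and 2324 wildtype counts. Imprinted genes with maternal methylation were higher at 10 of 10 tested starts (median 3.37), against the same 48.5%, with 8424 Kaiso KO and 778 wildtype counts. The part of the cell mix in the values of the 9 genes was not tested.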

How the data were processed

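Methylated DNA of testis was captured with MBD2 and sequenced in 1 Kaiso KO and 1 wildtype library. Bowtie2 2.2.6, edgeR and mm10 are named in the submitters' processing notes. The deposited counts are whole reads per 100 bp window and the deposited RPKM scales them to window length and library reads, per the file headers, whose names are those used by MEDIPS. The CpG number and a relative methylation score are deposited too. The log2 fold change of the authors, coded as wildtype over knockout, served for 1 alternative scaling, and their deposited p-value lies below 0.05 in every listed window. Another 10 columns of values per sample or group were not used.

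Counts over RPKM gave the library reads. Sums over windows were divided by 4 to approximate fragments, because a read is counted in several windows while the length to which reads were extended is unknown. Ratios are Kaiso KO over wildtype with exact Clopper-Pearson 95% intervals, and PCR copies are not independent molecules. A sum of 0 was set to 12 window counts and a 0 in 1 window to 3 counts. Spans and starts came from the GRCm38.p6 RefSeq table, without exons. TMM factors came from edgeR 4.0.16, the rest from Python 3.11.15 and scipy 1.17.1.

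On simulated data, where the fragments of 19225 protein-coding genes were redistributed, the rule called 52.0% of 50 genes changed 2-fold, 98.0% of 50 changed 4-fold and 0.163% of 19025 unchanged ones. That simulation drew fragments with the same counting error that the interval assumes. It left out the selection on p, PCR copies and differences between animals. Its share among unchanged genes is therefore no error rate for these libraries.

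All 9 genes are named. In each related list up to 4 called genes per direction are named by interval bound, and Inhba, Kit, Ret, Gfra1, Cstdc1 and Sox9 were added after their values were seen. Runs of Fshr and Kitl are given as examples. The members and lists were chosen with earlier results of these data known. Other scalings, divisors, minimums, folds, regions and window filters were tried.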

Additional observations from a re-analysis of the deposited data

How the results depend on the processing

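Cst12 and Amh were called higher under each of the 18 alternatives (log2 1.56 to 4.91 and 1.19 to 3.69), and Inha under 16 of them. Inha was not called when windows holding at least 5 CpGs were centred on 0 (log2 0.97) or when 4-fold was required. Among the 9 genes 2 to 4 were higher throughout. A lower gene, Cst9, was called with a divisor of 2, without a minimum of fragments and with 5 kb on each side of the gene, 1 in each case against 0. The shares of all genes called under the other settings are not given here. The 9.64% and 5.64% above hold for the main rule only. The median log2 ratio of the 9 was -0.19 under that centring and -0.014 in windows with 1 or 2 CpGs. The centring moved the median of all tested genes by -0.67, the authors' own by 0.13, TMM by -0.17, autosomal counts by -0.27 and scaling within CpG classes by 0.36. Fshr, Inhbb, Clu and Kitl were below 0 under 1 or more alternatives and Gdnf under none. The number of lower windows was 41 with scaling within CpG classes and 70 with 4-fold required, against 142, and that of higher windows lay between 88 and 178, against 131. Fshr was called higher when only 1 kb around both gene ends was counted (log2 1.19), and Gdnf with 1.5-fold required. No paired analysis was possible because each genotype has 1 library. Depth limits Cst9 most, with 18.25 fragments.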
